A study of Mus musculus with 3 samples.

Results

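The 46 mitosis and kinetochore genes described here are the rows whose gene name equals a member of a list of protein kinases, checkpoint proteins, centromere and kinetochore proteins, kinesins, anaphase regulators and chromosome proteins of dividing cells. All 46 of 46 names were found, among 55573 genes in the deposited table. The study prepared long DNA concatemers as amplified FISH probes and used UMI-RNAseq of NIH3T3 cells to choose transcripts of different abundance. It also compared the sequenced levels of the chosen transcripts with their FISH puncta per cell. NIH3T3 is an established mouse fibroblast line, and the cells were grown without treatment in serum-containing medium and collected with trypsin. The 3 libraries share 1 condition, so no groups of samples could be compared, and they are called library 1, library 2 and library 3. The methods describe no synchronization of the cell cycle, no separation of dividing cells and no statement on separate cultures, so an SD over libraries may cover technical spread only. Levels are given as FPKM, in which the fragments of a gene are divided by its length in kilobases and by the size of the library. In RNA from a whole culture, a smaller share of dividing cells and less RNA per dividing cell cannot be told apart.

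In mitosis, condensed chromosomes attach through their kinetochores to spindle microtubules, and the spindle checkpoint holds the cell until every kinetochore is attached. The anaphase-promoting complex (APC/C) then marks securin and cyclin B for destruction, separase opens cohesin, and the cell divides. Many of the genes involved are transcribed mainly in the late cell cycle. The promoters of such genes often carry a cell cycle genes homology region (CHR), which MuvB complexes bind, and CCAAT boxes, which the factor NF-Y binds.

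The promoters of the members are shown before their levels, because the rule that chose the members did not use them and many, though not all, held the motifs searched. RefSeq windows on GRCm38.p6, from 250 nt before to 50 nt after the transcript start, were matched by symbol for 39 of the 46 members. Aurkb, Foxm1, Incenp, Kif20a, Smc4, Spc24 and Tpx2 had no window in the table used. The CHR was searched as TTTGAA or TTCGAA and the NF-Y box as CCAAT, each on both strands, so that TTCAAA and ATTGG count as matches and TTCGAA is its own reverse complement. A CHR was found in 25 of 39 members (64.1%), against 21.7% of 27025 genes with a window and 16.5% of those with a mean of at least 1 FPKM. An NF-Y box was found in 27 members (69.2%), against 41.1% and 44.0%. Both were found in 22 members (56.4%), against 8.61% and 7.09%. A CHR that started within 50 nt on either side of the transcript start was found in 22 members (56.4%), against 6.12% of all genes with a window. This narrower range was chosen after the positions were seen. Related genes, listed below, came near the members for some motifs. An NF-Y box was found in 65.4% of DNA replication genes and 59.4% of other mitosis genes with a window. A CHR was found in 53.6% of the other mitosis genes but in 23.1% of the DNA replication genes. Within 50 nt of the transcript start, these shares were 39.1% and 7.69%. These shares are a description, without a test, and a match is not evidence of binding.

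**Figure D1:**
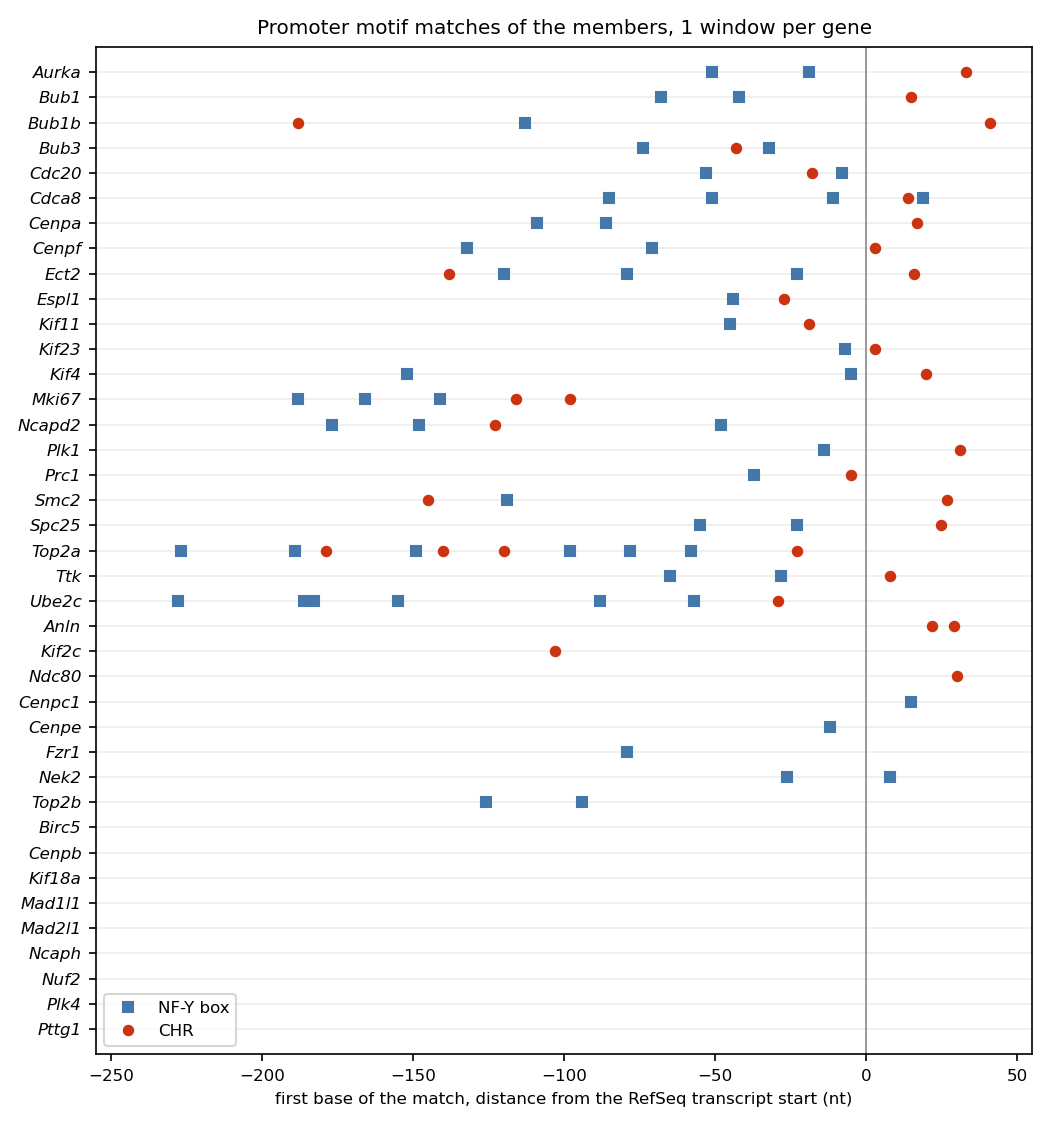
Matches to the CHR (circles) and the NF-Y box (squares) in the 39 members with a RefSeq promoter window, 1 window per gene, by distance in nt of the first base of the match from the transcript start (vertical line). Members with both motifs are at the top, and the 9 members at the bottom have neither.

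The bases from 120 nt upstream up to the transcript start are printed for 8 members, chosen after the matches were known. They include the paralogs Top2a and Top2b and the APC/C activators Cdc20 and Fzr1, because the members of each pair differ in the CHR. Capitals mark matches to either motif, and sequences run 5′ to 3′ on the strand of the gene.
Top2a (chr11:99024190-99024309, minus strand): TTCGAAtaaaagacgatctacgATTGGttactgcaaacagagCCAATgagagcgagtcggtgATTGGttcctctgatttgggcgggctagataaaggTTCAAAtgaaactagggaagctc
Top2b (chr14:16365086-16365205, plus strand): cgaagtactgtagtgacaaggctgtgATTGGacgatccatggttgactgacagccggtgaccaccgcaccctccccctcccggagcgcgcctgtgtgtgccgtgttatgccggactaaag
Cdc20 (chr4:118437344-118437463, minus strand): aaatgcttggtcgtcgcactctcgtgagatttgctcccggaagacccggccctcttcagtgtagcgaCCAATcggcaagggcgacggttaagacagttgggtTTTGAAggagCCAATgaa
Fzr1 (chr10:81378371-81378490, minus strand): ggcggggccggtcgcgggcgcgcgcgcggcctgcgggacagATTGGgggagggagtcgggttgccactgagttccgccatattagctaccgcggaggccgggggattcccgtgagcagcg
Ube2c (chr2:164769809-164769928, plus strand): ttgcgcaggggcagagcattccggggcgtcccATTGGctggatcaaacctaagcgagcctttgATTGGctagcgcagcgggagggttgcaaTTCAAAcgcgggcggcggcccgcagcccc
Espl1 (chr15:102296173-102296292, plus strand): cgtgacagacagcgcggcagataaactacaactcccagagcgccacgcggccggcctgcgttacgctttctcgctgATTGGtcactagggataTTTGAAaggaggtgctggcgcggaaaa
Kif11 (chr19:37376262-37376381, plus strand): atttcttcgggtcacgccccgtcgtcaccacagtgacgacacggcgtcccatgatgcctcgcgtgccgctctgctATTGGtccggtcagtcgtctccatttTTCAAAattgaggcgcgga
Bub3 (chr7:131560250-131560369, plus strand): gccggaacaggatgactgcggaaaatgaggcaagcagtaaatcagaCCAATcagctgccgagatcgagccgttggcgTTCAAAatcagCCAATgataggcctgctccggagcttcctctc

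In Cdc20, the CHR starts 18 nt upstream of the transcript start and lies between NF-Y boxes that start at 53 and 8 nt upstream. In Espl1 the CHR starts at 27 nt, in Kif11 at 19 nt and in Ube2c at 29 nt upstream, each with an NF-Y box farther upstream. In Top2a, 4 CHR matches and 6 NF-Y boxes were found in the whole window, whereas Top2b held only NF-Y boxes and Fzr1 a single one. The 9 members with neither motif were Birc5, Cenpb, Kif18a, Mad1l1, Mad2l1, Ncaph, Nuf2, Plk4 and Pttg1. For Birc5, Mad2l1 and Plk4, the bases after the RefSeq start were not found in an annotated transcript of the gene. The windows of Mad2l1 and Plk4 ended upstream of the annotated gene, so their result depends on the start used. The same check also failed for some members with a match, among them Anln and Kif11. The median level was 41.7 FPKM over the 25 members with a CHR, which ranged from 15.7 to 205.3 FPKM. It was 28.9 FPKM over the 14 members without one, which ranged from 6.98 to 101.8 FPKM, so the levels of the classes overlapped widely.

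The libraries held between 13959723 and 14423209 counted fragments, and a member rested on 155 to 5034 of them in a library. The cell type was checked with fibroblast markers, of which 10 of 12 had a mean of at least 1 FPKM, with Fn1 (fibronectin) highest at 4377 FPKM and Fap, a marker of activated fibroblasts, lowest at 0.0378 FPKM. The sample labels mention retina in their extraction text, but 0 of 12 retina markers reached 1 FPKM, and their summed level lay between 0.871 and 1.51 FPKM per library. Rcvrn was the highest retina marker at 0.363 FPKM, and Nrl was listed at 0. Of 6 immune markers 0 reached that level, with Csf1r highest at 0.0343 FPKM and Cd3e at 0. Of 6 epithelial markers 1 did, Krt14 at 8.39 FPKM, while Krt5 was listed at 0.

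All 46 members had a mean of at least 1 FPKM, against 23.2% of all genes listed and 49.2% of 21980 protein-coding genes. A mean of at least 10 FPKM was reached by 45 members, against 35.6% of the protein-coding genes. The median of the members was 38.3 FPKM, and the median of all 12905 genes with a mean of at least 1 FPKM was 17.5 FPKM. Of the members, 42 lay above the latter median and 29 lay between 20 and 60 FPKM. The range ran from Kif18a at 6.98 ± 0.714 FPKM (SD, n = 3) to Top2a at 205.3 ± 5.59 FPKM (SD, n = 3). When the members were put in order of their means, 21 of 45 neighbouring pairs kept their order in every library, and the other 24 did not differ beyond the spread between libraries. The values of neighbours did not overlap at all in 13 pairs, among them the steps from Top2a to Smc4, from Smc4 to Anln, and from Spc24 to Kif18a. From Cenpb at 44.5 FPKM down to Bub1b at 39.2 FPKM, each neighbouring pair changed places in at least 1 library.

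**Figure D2:**
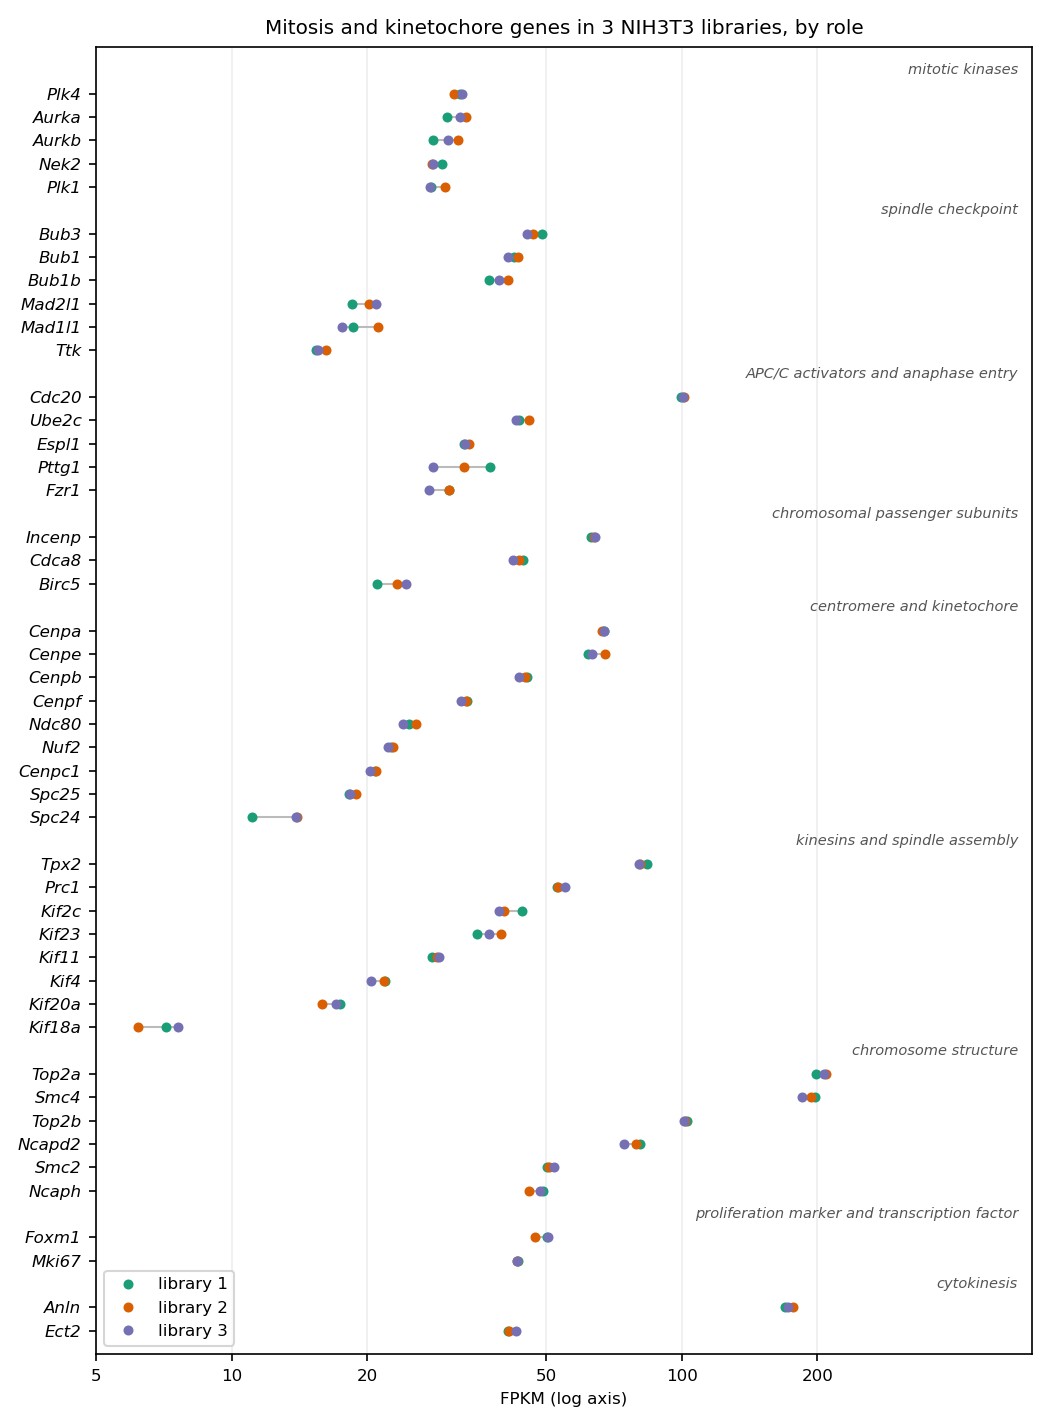
FPKM of each of the 46 members (log axis) in library 1, library 2 and library 3, shown as coloured points joined by a grey line, with the members grouped by role. On the deposited lengths, Top2a, Smc4 and Anln lie apart at the high end, Kif18a is the lowest, and the mitotic kinases lie between 28.3 and 31.9 FPKM, a range that widens to between 14.3 and 31.6 FPKM per protein-coding isoform.

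The levels below are those deposited, and orders between genes that change with another gene length are given as such, per longest isoform or per mean protein-coding isoform. The group of chromosome structure had a median of 89.9 FPKM over 6 members. Top2a encodes DNA topoisomerase II alpha, which untangles sister chromatids, and lies on the minus strand of chromosome 11 (98992943 to 99024189, GRCm38, as are all positions here). Its level was 199, 209 and 207 FPKM in libraries 1, 2 and 3. Smc4, an ATPase subunit of condensin on chromosome 3 (69004738 to 69034623), had 198, 194 and 185 FPKM. Its partner Smc2 had 50.3, 50.8 and 52.03 FPKM, below Smc4 in every library. The condensin I subunits Ncapd2 and Ncaph had means of 78.0 ± 3.37 and 47.8 ± 1.80 FPKM (SD, n = 3). Top2b, the topoisomerase II isoenzyme that is also made in non-dividing cells, had 102.6, 101.6 and 101.1 FPKM.

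The levels of both cytokinesis genes lay far apart. Anln encodes anillin, a scaffold of the contractile ring, and lies on chromosome 9 (22332012 to 22389188). It had 169.6, 177 and 173 FPKM, the third highest level of the members, and was the highest per protein-coding isoform (167 FPKM). Ect2, the exchange factor that activates RhoA at the cell equator, had 41.1, 41.3 and 42.7 FPKM.

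The mitotic kinases ranged from 28.3 FPKM for Plk1 to 31.9 FPKM for Plk4. This narrow range did not hold with other lengths, as the kinases ran from 14.3 FPKM for Nek2 to 23.2 FPKM for Aurka per longest isoform, and from 14.3 FPKM for Nek2 to 31.6 FPKM for Plk4 per protein-coding isoform. Aurka, which acts at centrosomes and spindle poles, had 30.1, 33.2 and 32.2 FPKM. Aurkb, the kinase of the chromosomal passenger complex, had 28.1, 31.9 and 30.2 FPKM, lower than Aurka in each library by a small margin. Plk1, which acts from mitotic entry to cytokinesis, had 27.7, 29.7 and 27.5 FPKM. Plk4, the regulator of centriole duplication, had 32.1, 31.1 and 32.5 FPKM. Nek2, a kinase of centrosome separation, had a mean of 28.5 ± 0.776 FPKM (SD, n = 3).

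Spindle checkpoint genes ranged from 15.7 to 46.9 FPKM, with a median of 29.6 FPKM over 6 members. Bub3, which brings Bub1 and BubR1 to the kinetochore, was highest with 48.9, 46.7 and 45.2 FPKM. Bub1 and Bub1b, the gene of BubR1, followed with 42.3 ± 1.12 and 39.2 ± 1.84 FPKM (SD, n = 3). Mad2l1 and Mad1l1, whose products form the template on which the checkpoint signal is made, were lower at 19.9 ± 1.24 and 19.1 ± 1.82 FPKM (SD, n = 3). Ttk, the kinase (MPS1) that starts the signal, was lowest as deposited with 15.4, 16.2 and 15.5 FPKM. With other lengths it was not the lowest, with 10.7 FPKM against 7.37 FPKM for Mad2l1 per longest isoform and 14.8 FPKM against 9.84 FPKM for Mad1l1 per protein-coding isoform.

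Among the regulators of the APC/C and of anaphase, Cdc20 stood out with 99.4, 101.3 and 100.6 FPKM. It encodes the activator that starts anaphase and lies on chromosome 4 (118432901 to 118437352). Fzr1 encodes CDH1, the activator that takes over at mitotic exit and in G1, and had 30.4, 30.4 and 27.5 FPKM. Ube2c, the E2 enzyme of the APC/C, had 43.6, 45.7 and 42.8 FPKM. Espl1 (separase) had 32.9, 33.7 and 33.01 FPKM. Pttg1 (securin, the inhibitor of separase) had 37.6, 32.8 and 28.0 FPKM, the widest relative spread of all members.

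The centromere and kinetochore group had a median of 24.8 FPKM over 9 members. Cenpa, the histone H3 variant that marks the centromere, was highest as deposited with 67.2, 66.6 and 67.1 FPKM, although Cenpb exceeded it per longest isoform (44.5 against 21.1 FPKM). Cenpe, a kinetochore motor, followed as deposited with 62.0, 67.4 and 63.0 FPKM. Cenpb exceeded Cenpe per longest isoform (44.5 against 16.6 FPKM) and per protein-coding isoform (44.5 against 30.8 FPKM). Cenpb, which binds a motif of centromeric satellite DNA, had 45.4, 44.8 and 43.4 FPKM, and Cenpf, a large outer kinetochore protein, had 32.98 ± 0.534 FPKM (SD, n = 3). Cenpc1, which links centromeric chromatin to the outer kinetochore, had 20.7 ± 0.344 FPKM (SD, n = 3). The NDC80 complex, which holds the microtubule, is built from a dimer of Ndc80 and Nuf2 and a dimer of Spc24 and Spc25. Its genes fell in the order Ndc80 (24.8 ± 0.850 FPKM), Nuf2 (22.6 ± 0.316 FPKM), Spc25 (18.5 ± 0.354 FPKM) and Spc24 (13.0 ± 1.65 FPKM) (SD, n = 3). This order held in each library as deposited, with Spc24 at 11.1, 14.0 and 13.9 FPKM. Per protein-coding isoform, Nuf2 exceeded Ndc80 (29.3 against 26.8 FPKM).

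Of the chromosomal passenger subunits, Incenp, the scaffold, was highest with 62.9, 63.8 and 64.2 FPKM. Cdca8 (borealin) had 44.5, 43.5 and 42.2 FPKM. Birc5 (survivin) had 21.1, 23.3 and 24.4 FPKM, the lowest of the complex as deposited, with Aurkb between Birc5 and Cdca8. Birc5 and Aurkb were nearly equal per longest isoform (14.72 and 14.69 FPKM), and Aurkb was the lower per protein-coding isoform (15.2 against 22.9 FPKM).

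The kinesins and spindle assembly genes had a median of 32.9 FPKM over 8 members and held the lowest member. Tpx2, a microtubule nucleator that activates Aurora A, was highest as deposited with 83.9, 80.6 and 80.4 FPKM, although Prc1 exceeded it per protein-coding isoform (54.7 against 51.03 FPKM). Prc1, which bundles the antiparallel microtubules of the central spindle, had 53.6 ± 1.17 FPKM (SD, n = 3). Kif2c (MCAK), a microtubule depolymerase, had 44.1, 40.2 and 39.2 FPKM, and Kif23 (MKLP1), a motor of the central spindle, had 35.0, 39.6 and 37.3 FPKM. Kif11 (Eg5), which pushes the spindle poles apart, had 28.5 ± 0.539 FPKM, and the chromokinesin Kif4 had 21.4 ± 0.852 FPKM (SD, n = 3). Kif20a, a kinesin of cytokinesis, had 16.8 ± 0.796 FPKM (SD, n = 3). Kif18a, which dampens chromosome movements at the metaphase plate and lies on chromosome 2 (109280738 to 109341747), had 7.15, 6.20 and 7.60 FPKM.

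The proliferation marker Mki67 (Ki-67, a protein of the mitotic chromosome surface) had 43.2, 43.1 and 43.0 FPKM, the smallest relative spread of the members at 0.211%. Foxm1, a transcription factor of late cell cycle genes, had 50.2, 47.3 and 50.5 FPKM.

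Ratios within a library were taken for 19 pairs of partners or paralogs, and 17 pairs had the same order in each library. In 15 pairs the mean log2 ratio exceeded 2 SD over libraries. Cdc20 lay 3.27-fold, 3.34-fold and 3.66-fold above Fzr1, with a mean of 3.43 ± 0.210 (SD, n = 3). Top2a lay 2.02-fold ± 0.0675 above Top2b. Smc2 lay at 0.266 ± 0.0138 times Smc4, and Ect2 at 0.241 ± 0.00704 times Anln. Relative to Incenp, Aurkb lay at 0.472 ± 0.0266, Birc5 at 0.360 ± 0.0226 and Cdca8 at 0.682 ± 0.0258 (SD, n = 3). The ratios of Ndc80 to Nuf2 and of Aurka to Aurkb were 1.10 ± 0.0227 and 1.06 ± 0.0147 (SD, n = 3). Spc25 lay 1.64-fold, 1.35-fold and 1.32-fold above Spc24. Two-sided exact sign-flip permutation tests gave p = 0.25 for the 17 pairs, or 0.279 after Benjamini-Hochberg adjustment over the 19. With 3 libraries no lower p is possible, and 0.05 was out of reach of this test. No order could be given for Mad2l1 and Mad1l1 (1.05 ± 0.126) or for Pttg1 and Espl1 (0.988 ± 0.147), whose order changed between libraries.

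**Figure D3:**
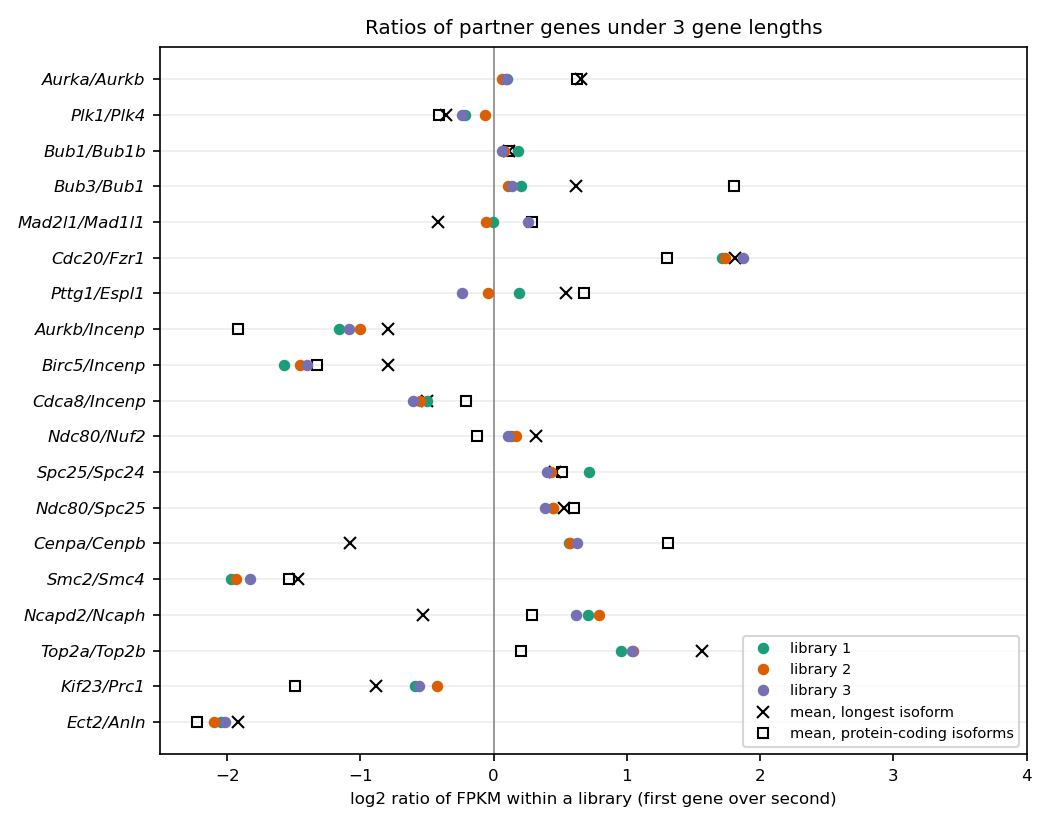
Log2 ratio of FPKM of the first over the second gene of 19 pairs, with coloured points for the 3 libraries and the gene length used by the authors. Crosses and open squares give the mean over libraries when the longest isoform or the mean of the protein-coding isoforms replaces that length, and in 5 pairs at least 1 of them falls on the other side of 0.

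The length used for FPKM was the mean over all annotated isoforms of a gene, short non-coding ones included, and it set part of these orders. The longest isoform exceeded it by more than 1.5 times in 41 of the 46 members, with a median factor of 1.995 over the members and of 1.72 over genes with a mean of at least 1 FPKM. Cenpb has 1 isoform of 4886 nt, whereas Ncapd2 has 13 isoforms, a length of 999 nt and a longest isoform of 4629 nt. Per longest isoform, the median of the members fell to 16.5 FPKM. No median of all genes is given with that length, so this value cannot be set beside the 17.5 FPKM above. Top2a (66.7 FPKM), Anln (69.8 FPKM) and Smc4 (71.4 FPKM) lay close together per longest isoform. Per protein-coding isoform they lay apart, with Anln at 167 FPKM, Smc4 at 97.6 FPKM and Top2a at 66.7 FPKM, and Cenpa at 110.4 FPKM also lay above Top2a. With the longest isoform or the mean over protein-coding isoforms, 14 of the 19 pairs kept their direction. Cdc20 stayed above Fzr1 by 3.52-fold and 2.46-fold, and Smc2 below Smc4 at 0.361 and 0.345 times. For Top2a over Top2b the ratio moved to 2.96 and 1.15, and for Aurka over Aurkb to 1.58 and 1.54. Ncapd2 lay above Ncaph as deposited (1.63-fold) but at 0.693 times per longest isoform, and Cenpa over Cenpb moved from 1.504 to 0.473. Ndc80 fell to 0.916 times Nuf2 per protein-coding isoform.

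The members together took 0.424%, 0.428% and 0.422% of all fragments, and their summed level was 2280, 2307 and 2261 FPKM, a mean of 2282 ± 23.2 (SD, n = 3). Sums by role had CVs between 0.844% for the kinesins and spindle assembly genes and 2.87% for the APC/C and anaphase group. Of the members, 16, 20 and 10 were highest in libraries 1, 2 and 3, against 34.8%, 34.6% and 30.6% of 13569 genes tested. The variation was compared with counting error by a chi-square statistic on the fragments behind each FPKM, adjusted over these 13569 genes. At an adjusted p under 0.05, 1 of 46 members was called, against 2.03% of all genes tested, and at an unadjusted p under 0.05, 7 of 46 against 9.53%. The 7 were Birc5, Cenpe, Mad1l1, Mad2l1, Pttg1, Smc4 and Top2a. In 21 members the CV over libraries was below that of counting error, and the medians were 3.05% and 3.34%. The median chi-square statistic was 2.39 over the members, against 1.59 over all genes tested and 1.39 for counting error alone. By this statistic the median member lay above counting error alone, although the median CV did not, and neither difference was tested. At an equal relative spread the statistic grows with the number of fragments. The members were not matched to other genes in fragments, so their median statistic cannot be set against that of all genes tested.

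The member called was Pttg1, on chromosome 11 (43420250 to 43426251). It had 420, 355 and 311 fragments, a CV of 14.5% against 5.26% from counting error. Its level was highest in library 1 and lowest in library 3, by a factor of 1.34. It was called with library 2 left out but with neither library 1 nor library 3 left out, and Pttg1 shared 0% of its 75-nt words with another annotated transcript. After Pttg1, the largest SDs of log2 FPKM were those of Spc24 (0.19), Kif18a (0.15), Mad1l1 (0.14) and Birc5 (0.11). Spc24 rested on the fewest fragments, with 155, 189 and 193. Birc5 was lowest in library 1, with 651, 696 and 747 fragments.

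**Figure D4:**
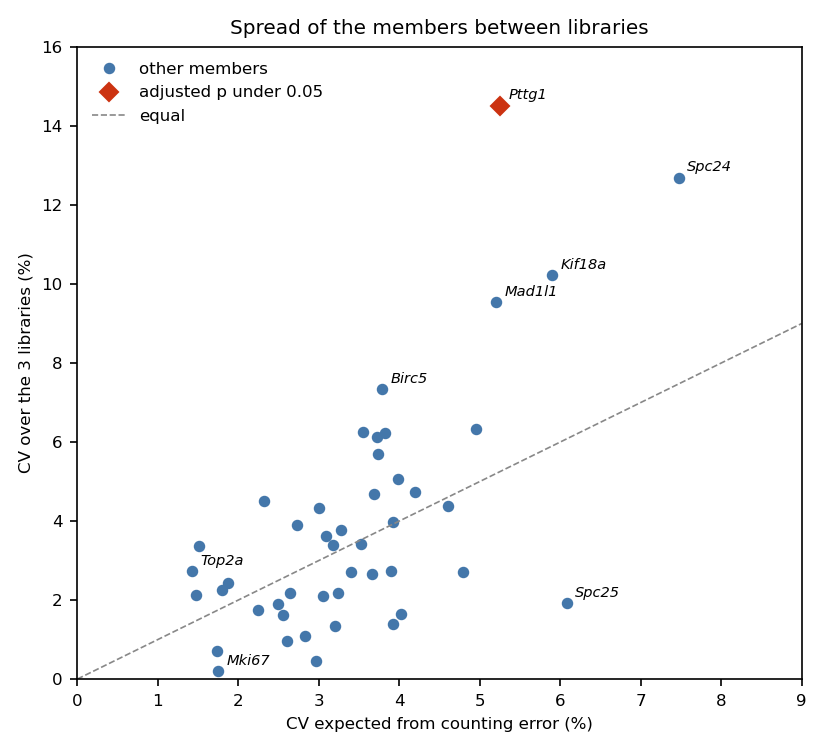
CV of FPKM over the 3 libraries (%) against the CV expected from counting error (%) for each of the 46 members, with the dashed line where they are equal. Pttg1 (diamond) lies farthest above the line at 14.5%, and Mki67 is the lowest at 0.211%.

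Sequence shared with other genes was counted in 75-nt words of the annotated transcripts. Of the 46 members, 20 shared no word with another gene's transcript and 7 shared over 5%. Kif20a shared 23.3%, mainly with Cdc23, whose exons overlap 29.3% of its exonic bases on the opposite strand. Kif4 shared 13.8% with Pdzd11, Top2b 10.7% with Rarb and Ube2c 10.1% with Tnnc2, each of which overlaps it on the opposite strand. Whether counting used strand is not given in the sources used here, so reads in these overlaps cannot be assigned. Rarb and Tnnc2 had means of 0.188 and 0.0464 FPKM, while Cdc23 and Pdzd11 had 29.97 and 32.2 FPKM. The pseudogene Kif4-ps was listed at 0.

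The members were also set beside lists of related genes. Levels and medians of the lists are those on the deposited lengths. With the longest isoform only the counts at 1 FPKM were repeated, so orders among these genes may depend on length. Of 81 other mitosis genes, 81 had a mean of at least 1 FPKM, with a median of 20.9 FPKM. Zwint, a protein of the outer kinetochore, was highest at 199 FPKM, and Cenpp, of the inner kinetochore, was lowest at 1.72 FPKM. Racgap1, the partner of Kif23 in centralspindlin, had 110.2 ± 2.64 FPKM (SD, n = 3), above Kif23 in each library as deposited. Cdk1, the kinase that drives mitotic entry, had 83.4 ± 0.724 FPKM, and its partner cyclins Ccnb1 and Ccnb2 had 63.0 ± 1.68 and 6.64 ± 0.362 FPKM (SD, n = 3). These 4 genes were named after their values were seen. Between libraries, 1 of the 81 was called by the chi-square rule, Ube2s, the E2 that extends ubiquitin chains for the APC/C.

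DNA replication genes gave 33 of 34 with a mean of at least 1 FPKM and a median of 27.3 FPKM, with Pcna, the sliding clamp, highest at 166 FPKM and Fen1, the flap endonuclease, lowest at 0.302 FPKM. Of meiosis genes, 2 of 22 reached 1 FPKM, and the median was 0.0212 FPKM. These were Prdm9, which sets recombination sites, at 7.42 FPKM, and Sycp1, of the synaptonemal complex, at 3.62 FPKM, and 6 of the 22 were listed at 0, Hormad1 among them. Aurkc, the Aurora kinase of germ cells, was listed at 0 in libraries 1 and 3 and at 0.0693 FPKM in library 2, whereas its paralogs Aurka and Aurkb had means of 31.8 and 30.1 FPKM. Aurkc was also named after its values were seen. The CHR and the NF-Y box together were found in 34.8% of the other mitosis genes with a window, in 19.2% of the DNA replication genes and in 11.8% of the meiosis genes, against 56.4% of the members. Counted singly and in the same order of lists, the CHR was found in 53.6%, 23.1% and 17.6%, against 64.1% of the members. The NF-Y box was found in 59.4%, 65.4% and 41.2%, against 69.2% of the members.

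**Figure D5:**
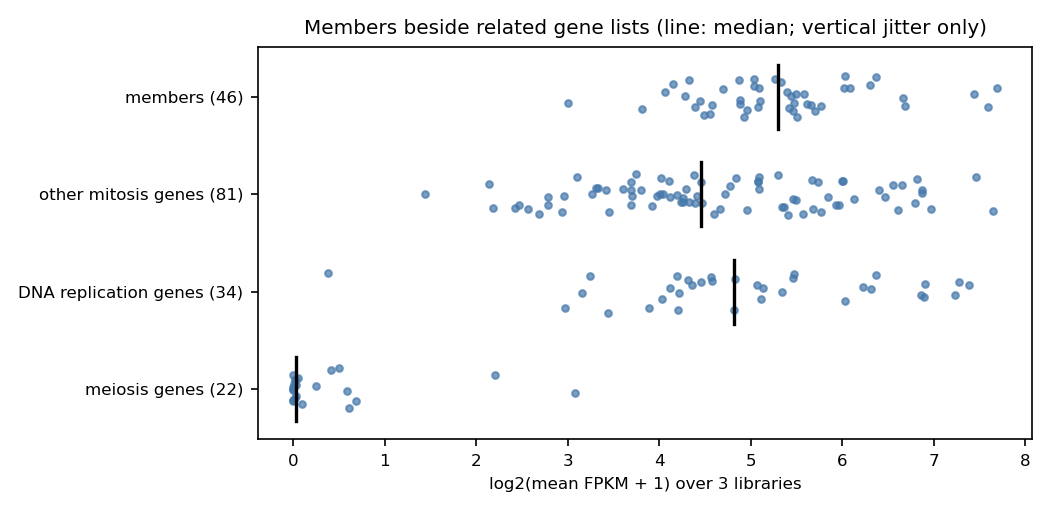
Mean FPKM over 3 libraries as log2(mean FPKM + 1) for each gene of the members and of the lists of other mitosis, DNA replication and meiosis genes, with the median as a black line. The first 3 lists overlap, and 20 of the 22 meiosis genes lie below 1 FPKM.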

How the data were processed

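UMI-RNAseq was measured in 3 libraries of NIH3T3 cells. According to the methods, UMI-tools (1.0.0) was used to find the UMIs, reads were mapped with Hisat2, copies with the same UMI and location were removed, and reads were counted with HTSeq (0.6.1). The submitters' processing notes give HISAT2 2.0.4 and also name DESeq 1.10.1. The authors deposited FPKM values, 1 column per library, in 2 tables with identical values. The build and annotation are not given in the sources used here, and 0 columns of values were left unused.

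Fragments were recovered as FPKM multiplied by the mean isoform length in GENCODE M21 (GRCm38), rounded to whole nt, and by the library total, which genes with 1 isoform and few fragments fix. They came out whole, within 0.02, for 99.2% of the 26193 genes above 0, the members included. All 46 members are annotated as protein coding. Counting error was assessed by a chi-square statistic over libraries for genes with at least 10 expected fragments per library, with Benjamini-Hochberg adjustment. On simulated fragments with 1 of 3 libraries changed, it called 50% of genes at 1.2-fold, 84% at 1.5-fold and 0.239% of 13401 unchanged genes. Ratios were tested with an exact sign-flip permutation test and no pseudocount. Python 3.11.15, numpy 2.4.6, pandas 2.3.3, scipy 1.17.1 and matplotlib 3.10.9 were used.

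The members, roles, pairs and lists were chosen with earlier results of these data known. Named are the highest and lowest member of each role and list, the pairs, the members called, and the 5 highest and 5 most variable members. Others are named with their role. Alternatives were leaving out each replicate, scaling by median of ratios or to TPM, medians in place of means over libraries, other limits and pseudocounts, and the longest isoform. The mean protein-coding isoform length was added after the data were examined.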

Additional observations from a re-analysis of the deposited data

How the results depend on the processing

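The results were recomputed under alternatives, which gave 188 values. Of these, 171 kept their direction or stayed within the SD between libraries or within 1.5 times a count, and the others are given here. Some alternatives could not change a result, such as a limit of 0.1 FPKM for members all above 1 FPKM. The count of 171 is therefore not a measure of robustness. TPM changes the scale of a whole library and put the median of the members at 55.5 and their sum to 3307. The longest isoform moved the median to 16.5 and the mean over protein-coding isoforms, added after the data were examined, to 26.2. With a limit of 0.1 FPKM, 8 meiosis genes were counted, and with a limit of 10 FPKM, 0 were.

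The mean log2 ratio of Mad2l1 to Mad1l1 reversed to -0.41 with the longest isoform, and ranged from -0.032 to 0.126 when 1 replicate was left out, below 0 without replicate 3. That of Pttg1 to Espl1 reversed to 0.55 and 0.68 with the longest and the protein-coding isoforms, and ranged from -0.137 to 0.0759, above 0 without replicate 3. Ndc80 to Nuf2 reversed to -0.13 with protein-coding isoforms, Cenpa to Cenpb to -1.08 and Ncapd2 to Ncaph to -0.53 with the longest isoform. The reversals under another isoform length follow from the lengths, since the fragments are the same, and the cause of those without replicate 3 was not tested. The number of members called between libraries was 7 at an unadjusted p and ranged from 0 to 1 when 1 replicate was left out, with 0 without library 1 or library 3. No paired analysis was possible because the 3 libraries share 1 condition. Members with few fragments have the widest counting error, with CVs of 7.48% for Spc24, 6.08% for Spc25 and 5.90% for Kif18a. The CV of Spc25 over libraries was nevertheless 1.92%. Intervals of counting do not cover differences between cultures.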
